A study of Tupaia belangeri chinensis with 36 samples.

Results

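The intermediate zone (IZ) of the fetal cortex of the Chinese tree shrew (Tupaia belangeri chinensis) was profiled at embryonic day 28 (E28), E37 and E42 by RNA sequencing of tissue cut out with a laser. The members are all libraries labelled as IZ, which are 7 of the 36 libraries analysed here: 2 of E28, 3 of E37 and 2 of E42. No treatment or altered genotype is named in the labels, and the groups differ in stage. Dams were killed once their embryos had been collected, so libraries of different stages come from different litters. Stage, litter and any difference in preparation that went with them cannot be told apart. The other libraries come from the ventricular zone (VZ), inner and outer subventricular zone (ISVZ and OSVZ), cortical plate (CP, or its inner and outer parts CPi and CPo) and marginal zone (MZ), and the study used the series to follow gene expression across layers and stages. The labels number the libraries of a group but do not say whether they came from separate fetuses, so p-values measure the spread between libraries, which may be technical.

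The IZ lies between the germinal zones, where cortical neurons are born, and the cortical plate, where they settle. Newborn neurons cross it along the fibres of radial glia, the elongated progenitors of the cortex, and the first axons entering and leaving the cortex run through it. Later in development, precursors of oligodendrocytes, the myelin-forming glia, also spread through this layer, which becomes white matter.

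The count tables held 76871 features. Protein-coding features (21043) carried only an annotation number written TSDBGID, with no gene symbol, so known genes could be followed only through noncoding features. Of these, 31776 were named LINC-SYMBOL-n, read here as lying beside the gene of that symbol, and 22595 were named SYMBOL-AS-n, read as lying antisense to it. Both readings rest on the form of the names, and the positions of the features were not checked. A value for such a feature is a level of the noncoding transcript and not of the gene's messenger RNA. No strand marking is described for the kit and the strand setting of the counting is not given in the sources used here, so reads of a gene and of its antisense partner cannot be told apart.

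Between 20202632 and 45173487 counts fell on features in the IZ libraries, the E37 libraries being the shallowest and the E42 libraries the deepest, and 12.4% to 22% of counted reads were not aligned at E37 against 8.29% to 12.1% at the other stages. TSDBGID features took 98.1% to 98.3% of these counts. Profiles of libraries of the same stage correlated at 0.957 to 0.979 over features and those of different stages at 0.923 to 0.957, as a description. The first principal component (38.2% of the variance) set both E28 libraries, at -87.3 and -94.6, against the E37 and E42 libraries, at 14 to 57.4. The second (21%) set E37, at -28.9 to -60.1, against E42, at 56.6 and 56.8. Features named after SOX2, a progenitor factor, were summed in CPM (counts scaled to the size of the library). In the IZ they came to 0.966 to 2.19 CPM at E28, 1.95 to 3.14 CPM at E37 and 3.68 to 5.5 CPM at E42. The OSVZ held 1.65 to 3.82 CPM at E28 and 5.17 to 12.1 CPM at E42, which overlapped the IZ at both stages. Features named after RELN, the signal secreted by Cajal-Retzius cells of the MZ, summed to 0 to 0.138 CPM in the IZ libraries. The 10 features named after DAB1, which acts in migrating neurons, were all too low to be tested, so this marker could not be checked. Fewer cells of a type and less RNA per cell cannot be told apart in tissue pieces.

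Between E28 and E42, more features rose than fell in the IZ. Of 17744 features with enough counts to test, 2000 rose and 1353 fell at an adjusted p under 0.05 by edgeR's quasi-likelihood test, 18.9% of those tested. The risers also moved further, with a median log2 fold change of 1.76 against -0.84 for the fallers. A change of more than 1 on the log2 scale was found for 1604 risers and 477 fallers. Noncoding features named after genes were called less often: 164 of 4044 rose (4.06%) and 76 fell (1.88%), 5.93% in all, against 22.8% of TSDBGID features. Their median level was near 0.58 CPM, against 20.2 CPM for TSDBGID features, so they were measured with fewer counts. A feature could pass the filter on low counts through a single stage, so a share of tested features called is a description. The libraries of E28 and E42 did not overlap for 61.6% of all features tested and 47.2% of the noncoding ones. Leaving out an E42 library lowered the risers to 1313 (without replicate 1) or 1116 (without replicate 2) and the fallers to 429 or 585, and leaving out E28 replicate 2 lowered the fallers to 780.

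Among noncoding features with a mean of at least 1 CPM over the IZ libraries, those with the largest rise were at or near 0 at E28. LINC-LORF2-9, named after the reverse transcriptase of LINE-1 retrotransposons, had no count in either E28 library, reached 0.68, 1.13 and 0.419 CPM at E37 and 2.63 and 2.85 CPM at E42. The level at E42 was at least 51.5-fold higher than 3 counts over both E28 libraries would allow (edgeR adjusted p = 0.00034). Because LINE-1 copies are repeated through a genome, the position of its reads is uncertain. RPL17-AS-3, antisense to a gene of a large-subunit ribosomal protein, went from 0 in both E28 libraries through 0.366, 2.76 and 0.559 CPM at E37 to 1.64 and 1.98 CPM at E42. It was at least 34-fold higher at E42 (edgeR adjusted p = 0.0044), and E37 spanned a range that held both E42 values. Ribosomal protein genes have many near-identical copies, so its reads are uncertain too. PTCHD4-AS-1, antisense to a gene of a patched-domain membrane protein, was also at 0 in both E28 libraries, stood at 2.3, 1.18 and 1.17 CPM at E37 and at 1.86 and 1.75 CPM at E42, at least 33.9-fold above the E28 limit (edgeR adjusted p = 0.00049).

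Other members of the group with the largest rise had counts at E28. LINC-HINT1-9, beside a gene of a nucleotide hydrolase, measured 0.104 and 0.0726 CPM at E28, 4.29, 3.31 and 1.91 CPM at E37 and 6.17 and 6.99 CPM at E42, 3 ranges that did not overlap, with a log2 fold change of 6.15 ± 0.64 (SE; edgeR adjusted p = 3.9e-05). ITGB5-AS-3, antisense to an integrin subunit gene, had 0 and 1 count in the E28 libraries and at most 0.272 CPM at E37. It stood at 2.73 and 7.16 CPM at E42 (log2 fold change 7.81 ± 1.21, edgeR adjusted p = 0.00086). The size of this change rests on 1 count at E28 and ran from 6.93 to 10.18 over the alternatives. LINC-AOX2-1, beside an aldehyde oxidase gene, climbed in both steps, from 0.0694 and 0.29 CPM through 1.15, 2.81 and 0.559 CPM to 6.49 and 7.95 CPM (log2 fold change 5.31 ± 0.83, edgeR adjusted p = 0.001). The stages did not overlap in LINC-AOX2-1 either. LINC-PAPOLG-4, beside a poly(A) polymerase gene, rose from 0.694 and 0.181 CPM at E28 to 11.6 and 10.6 CPM at E42 and became the most abundant of these 12 risers (log2 fold change 4.64 ± 0.70, edgeR adjusted p = 0.00099). CHSY3-AS-1, antisense to a gene of chondroitin sulphate synthesis, was higher at E37 (4.39, 6.93 and 4.94 CPM) than at E42 (4.15 and 3.29 CPM), and both stages lay above E28 (0.243 and 0.145 CPM). The remaining 4 (LINC-DGCR14-1, FAM163B-AS-1, NDUFA10-AS-2 and LINC-ABHD5-4) had log2 fold changes of 4.52 to 4.76. LINC-DGCR14-1 lost its call without E28 replicate 1, and NDUFA10-AS-2 and LINC-ABHD5-4 lost theirs without E42 replicate 2.

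**Figure D1:**
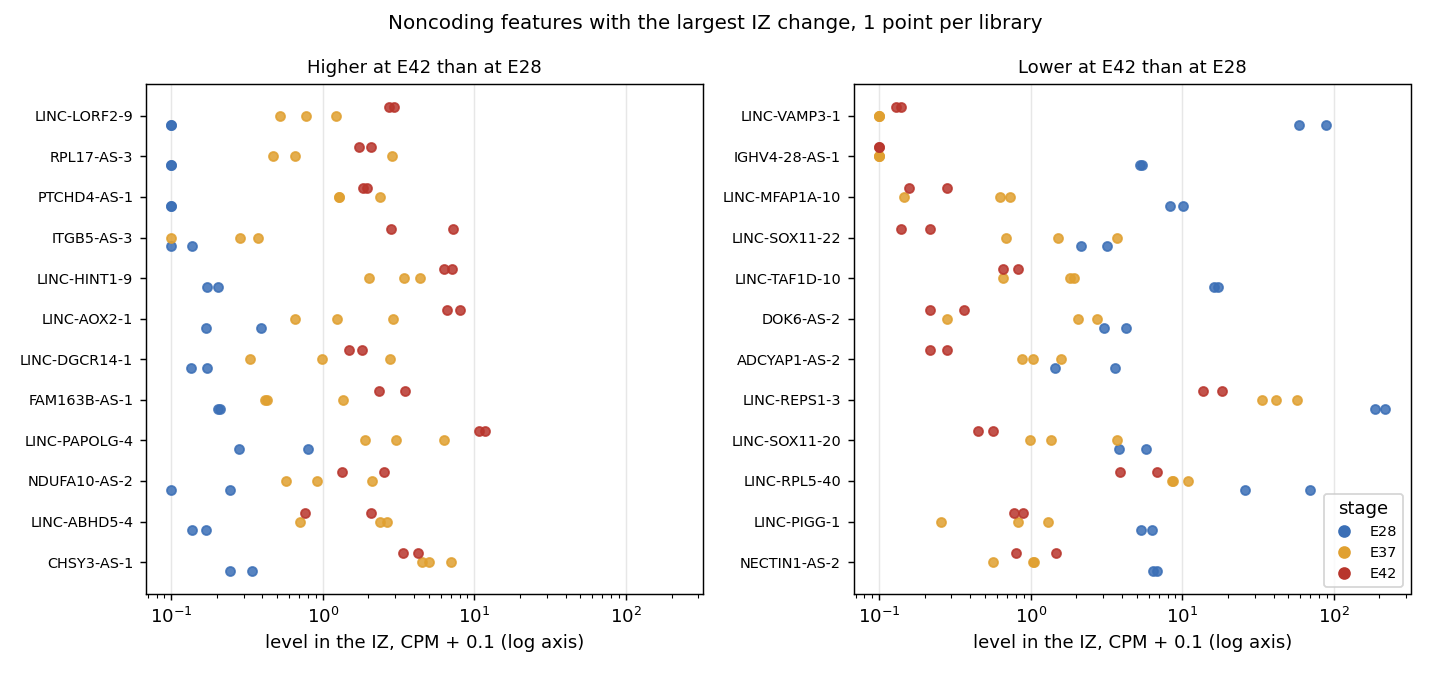
Level of the 12 noncoding features with the largest rise (left) and the 12 with the largest fall (right) between E28 and E42 in the IZ, in CPM plus 0.1 on a log axis, with 1 point per library coloured by stage. Only features with a mean of at least 1 CPM over the IZ libraries were ranked. E28 points lie left of E42 points in every row on the left and right of them in every row on the right, as the choice of features requires, and E37 points lie near E42 for PTCHD4-AS-1 and near E28 for ITGB5-AS-3.

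Among these risers, LINC-AOX2-1, LINC-PAPOLG-4, RPL17-AS-3, FAM163B-AS-1 and LINC-DGCR14-1 were higher in both IZ libraries of E42 than in any E42 library of the ISVZ, OSVZ, CPi, CPo and MZ. On a scale normalised over the 32 libraries outside the VZ, LINC-AOX2-1 measured 6.37 and 7.61 CPM in the IZ at E42, and at most 0.0745 CPM in the OSVZ, 0.505 CPM in the CPi and 0.00955 CPM in the MZ. LINC-PAPOLG-4 measured 10.1 and 11.3 CPM in the IZ and at most 3.07 CPM in the CPi, the next layer. RPL17-AS-3 measured 1.61 and 1.89 CPM in the IZ and at most 0.286 CPM elsewhere. FAM163B-AS-1 measured 2.2 and 3.26 CPM in the IZ and at most 0.904 CPM elsewhere, and LINC-DGCR14-1 measured 1.38 and 1.64 CPM against at most 1.16 CPM. Without the pairing of libraries by replicate number, the test of whether the IZ change differed from the change in the OSVZ, CP or MZ did not call any of these 5 features. Some of these tests could not decide. LINC-AOX2-1 had no count at E28 in the OSVZ or CP, where its differences were 1.65 and 0.01 on the log2 scale. For LINC-DGCR14-1 against the CP the difference was 0.17 with a standard error of 56.6. For RPL17-AS-3 against the MZ the standard error was also far above the difference of 6.23. For LINC-PAPOLG-4 the difference of the changes was 4.54 on the log2 scale against the OSVZ, 4.06 against the CP and 4.27 against the MZ, with edgeR adjusted p = 0.16, 0.071 and 0.063. With the replicate number as a block, the edgeR adjusted p for LINC-PAPOLG-4 was 0.07, 0.014 and 0.014, so the CP and MZ differences passed. RPL17-AS-3 passed against the CP with the block (edgeR adjusted p = 0.043, and 0.11 without it). LINC-LORF2-9, by contrast, stood at 3.13 to 4.02 CPM in the OSVZ at E42, above its IZ level of 2.57 to 2.73 CPM.

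Among the largest falls at a mean of at least 1 CPM, LINC-VAMP3-1 and IGHV4-28-AS-1 were abundant at E28 and without counts by E37. LINC-REPS1-3, LINC-SOX11-22, DOK6-AS-2 and ADCYAP1-AS-2 were still measured at E37. LINC-VAMP3-1, beside a gene of a vesicle fusion protein, measured 59.2 and 88.8 CPM at E28, had no count in any of the 3 E37 libraries, and measured 0.0401 and 0.0291 CPM at E42 (log2 fold change -10.86 ± 0.46, edgeR adjusted p = 3.1e-07). IGHV4-28-AS-1, antisense to an immunoglobulin variable segment, measured 5.31 and 5.19 CPM at E28 and had no count in the 5 later libraries, which puts it at least 147-fold lower at E42 (edgeR adjusted p = 0.00016). The unnamed coding feature TSDBGID.17859 followed the same course, from 61.7 and 111 CPM at E28 to no count in 4 of the 5 later libraries and 0.136 CPM in the other. LINC-VAMP3-1 and TSDBGID.17859 shared this course in the other layers. LINC-VAMP3-1 measured 53.7 to 356 CPM in the E28 libraries of the OSVZ, ISVZ, CP and MZ and at most 0.154 CPM in the later libraries of the OSVZ, ISVZ, CPi, CPo and MZ. TSDBGID.17859 measured 50.7 to 297 CPM there at E28 and at most 0.111 CPM later. The interaction tests did not call the IZ change of any of the 3 features different from that of the OSVZ, CP or MZ (edgeR adjusted p from 0.61 to 1, and from 0.26 to 1 with the replicate block). For IGHV4-28-AS-1 these tests could not decide, with standard errors of 606 to 1020 on the log2 scale. The test of TSDBGID.17859 against the CP could not decide either, with a standard error of 2970. Stage and litter cannot be told apart for these falls.

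**Figure D2:**
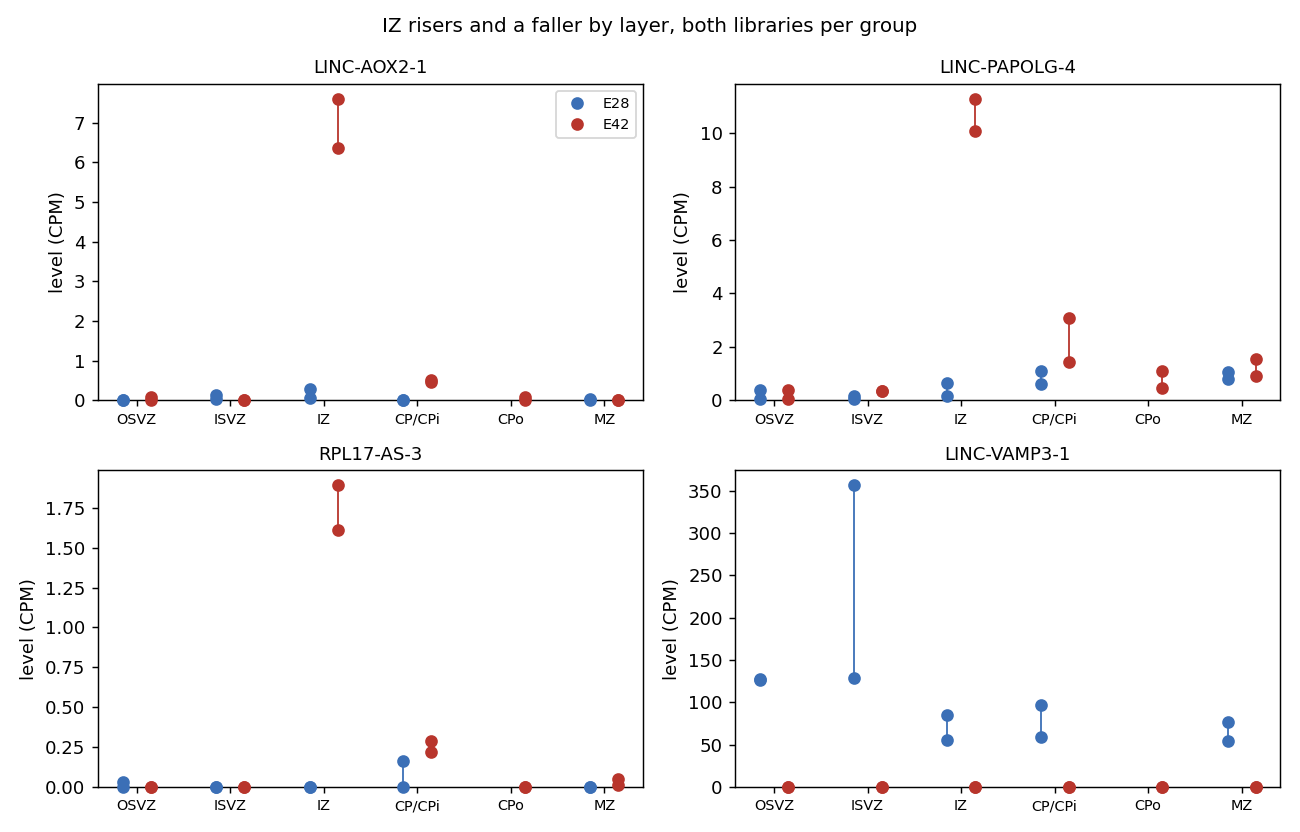
Level in CPM of 3 features that rose in the IZ (LINC-AOX2-1, LINC-PAPOLG-4 and RPL17-AS-3) and of LINC-VAMP3-1, which fell, by layer at E28 (blue) and E42 (red), with both libraries of a group joined by a line and a separate linear axis for each feature. The CP of E28 stands beside the CPi of E42. The 3 risers are high in the IZ at E42, while LINC-VAMP3-1 is high at E28 in every layer shown and near 0 at E42.

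LINC-REPS1-3, beside a gene of endocytosis, was the most abundant noncoding feature among the 12 with the largest fall. It measured 218 and 187 CPM at E28, 57.4, 33.6 and 41.2 CPM at E37 and 18.2 and 13.5 CPM at E42 (log2 fold change -3.67 ± 0.27, edgeR adjusted p = 4.4e-06). The 3 stages did not overlap and both steps passed the test. The OSVZ showed 265 and 273 CPM at E28 and 13.5 and 16.4 CPM at E42. LINC-TAF1D-10, beside a gene of ribosomal RNA transcription, fell from 16.1 and 17.1 CPM at E28 to 1.83, 1.72 and 0.559 CPM at E37 and 0.721 and 0.553 CPM at E42 (log2 fold change -4.69 ± 0.53, edgeR adjusted p = 7.4e-05). LINC-MFAP1A-10, beside a splicing factor gene, fell from 8.22 and 10 CPM to 0.18 and 0.0582 CPM (edgeR adjusted p = 0.00041). ADCYAP1-AS-2, antisense to the gene of the neuropeptide PACAP, stayed at 0.77 to 1.49 CPM at E37, beside 1.35 and 3.48 CPM at E28, and measured 0.18 and 0.116 CPM at E42 (log2 fold change -3.96 ± 0.76, edgeR adjusted p = 0.003). The remaining members were LINC-SOX11-22, LINC-SOX11-20, DOK6-AS-2, LINC-RPL5-40, LINC-PIGG-1 and NECTIN1-AS-2, with log2 fold changes of -5.04 to -2.67. DOK6-AS-2 and LINC-PIGG-1 lost their call when either E42 library was left out, and NECTIN1-AS-2 without E42 replicate 1.

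The coding features with the largest rise were abundant by E42. TSDBGID.25680 measured 0.208 and 0.109 CPM at E28, 18.6, 24.2 and 8.06 CPM at E37 and 83 and 92.4 CPM at E42 (log2 fold change 9.06 ± 0.68, edgeR adjusted p = 0.00011). TSDBGID.21050 measured 0.59 and 1.31 CPM, then 6.43 to 7.39 CPM, then 59.2 and 75.6 CPM (log2 fold change 6.15 ± 0.36, edgeR adjusted p = 4.8e-07). Both rose in each step, without overlap between stages. At E42 both were higher in the OSVZ and the MZ than in the IZ, TSDBGID.25680 at 203 to 306 CPM in the OSVZ and 154 to 198 CPM in the MZ. TSDBGID.7419 reached 115 and 125 CPM in the IZ at E42 (edgeR adjusted p = 0.029) and 1280 and 1440 CPM in the MZ, and its call was lost when any E28 or E42 library was left out. Among the fallers, TSDBGID.9879 dropped from 114 and 115 CPM at E28 to 11.9, 16 and 15.1 CPM at E37 and 7.59 and 6.84 CPM at E42 (log2 fold change -3.99 ± 0.21, edgeR adjusted p = 3.1e-07). TSDBGID.25449 (42 and 126 CPM at E28, 1.1 and 1.46 CPM at E42) and TSDBGID.18855 (92.6 and 124 CPM, then 1.72 and 2.24 CPM) passed by little, with edgeR adjusted p = 0.04 and 0.049, and each lost its call when either E28 or either E42 library was left out.

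Most of the change that could be placed fell between E28 and E37, the longer step. The first step covered 9 days and called 1636 features higher and 1164 lower (9.22% and 6.56%, together 15.8% of those tested), and the second covered 5 days and called 647 higher and 391 lower (3.65% and 2.2%, together 5.85%). Both steps use the E37 libraries, so a high or low value there moves them in opposite directions. Of the 2000 risers, 1014 were called in the first step alone, 265 in the second alone, 124 in both and 582 in neither. Another 12 rose in the first step and fell in the second, and 3 fell and then rose. Of the 1353 fallers, 553 were called in the first step alone, 183 in the second alone, 20 in both and 595 in neither, and 2 fell and then rose. Early features are those called in the direction of the whole change in the first step and not in the second, and late ones the reverse. The median riser had made 70.9% of its log2 change by E37 and the median faller 58.6%. A steady change would also put the larger part in the first step, which covered 9 days against 5. The 164 noncoding risers had made 76.1% and the 76 noncoding fallers 73.5%. A call in 1 step and not in the other does not show that the steps differ, and no test of that difference was made. The second step called 175 features without E42 replicate 2, 379 without E42 replicate 1 and 303 without E37 replicate 1, and the first step called 1649 without E28 replicate 2. Over both directions there were 1581 early, 451 late and 144 double calls. The counts were 1013, 84 and 52 without E42 replicate 2 and 1031, 173 and 81 without E42 replicate 1, and there were 147 late and 71 double calls without E37 replicate 1. Without E28 replicate 2 there were 971 early calls. Thinning all libraries to the smallest changed little, with 2787 calls in the first step and 1039 in the second.

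**Figure D3:**
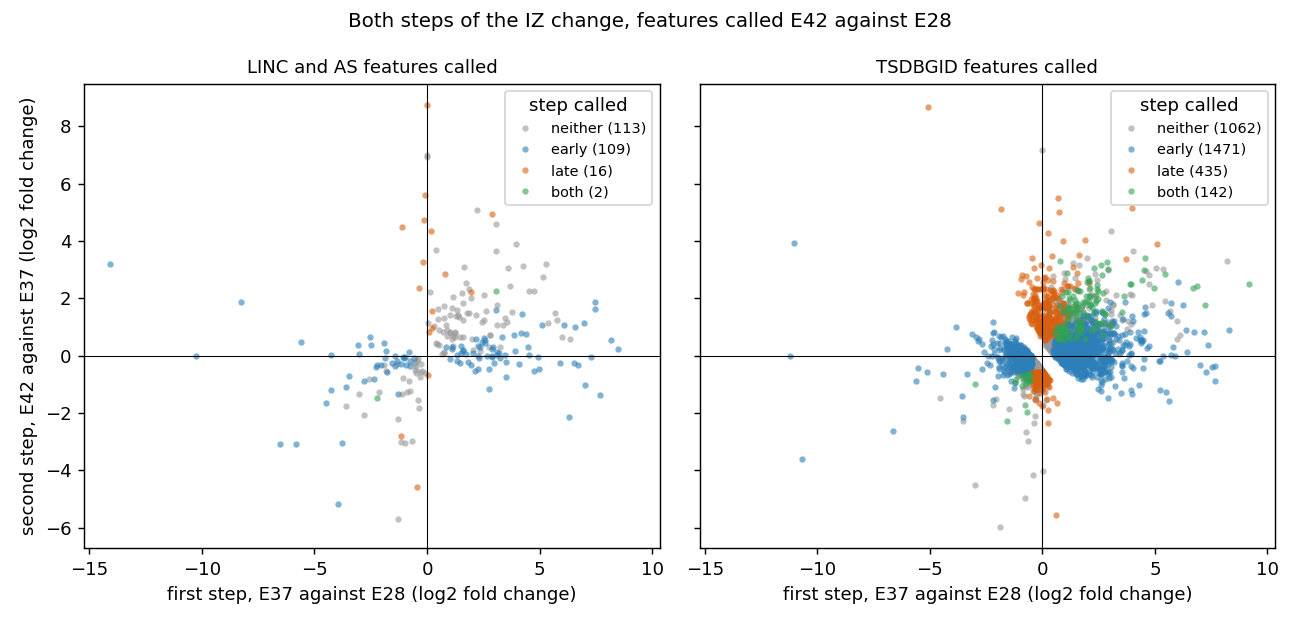
Log2 fold change of the first step (E37 against E28, horizontal) and of the second step (E42 against E37, vertical) for features called between E28 and E42, noncoding features on the left and TSDBGID features on the right, coloured by the step in which they were called. Early noncoding features (109) spread along the horizontal axis and late ones (16) along the vertical axis, and both coordinates share the E37 libraries.

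Among noncoding features the first step called 5.42% and the second 1.01%. Of the noncoding risers, 69 were called in the first step alone and 13 in the second alone, with LINC-AOX2-1 the member called in both. Of the late risers with a mean of at least 1 CPM over the IZ libraries, ITGB5-AS-3, LINC-SOX10-1 and PLEKHA7-AS-3 had the largest change. PLEKHA7-AS-3, antisense to a gene of adherens junctions, measured 0.624 and 0.581 CPM at E28, 0.363 to 0.699 CPM at E37 and 2.28 and 2.62 CPM at E42, so E28 and E37 overlapped (log2 fold change 2.02 ± 0.63, edgeR adjusted p = 0.039). Of the noncoding fallers, 40 were early and 3 late, with LINC-REPS1-3 called in both steps. The 3 late fallers were LINC-SOX11-22, ADCYAP1-AS-2 and ADD2-AS-2. ADD2-AS-2, antisense to a gene of the membrane skeleton, was abundant throughout, at 111 and 82.3 CPM at E28, 95.2, 98.6 and 107 CPM at E37 and 63.9 and 62.4 CPM at E42 (log2 fold change -0.61 ± 0.18, edgeR adjusted p = 0.03). PLEKHA7-AS-3 and ADD2-AS-2 each lost their call in 7 of 16 alternatives, among them leaving out either E42 library or E28 replicate 1.

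Some features differed at E37 from the mean of E28 and E42, which does not require E37 to be the highest or lowest stage. Of the features called higher, 353 were also risers called in the first step alone. Of those called lower, 89 were also fallers called in the first step alone. By contrast, 58 rose and then fell, and 123 fell and then rose, without an E42 against E28 call. The test of E37 against the mean of the other stages called 757 features higher (4.27%) and 521 lower (2.94%), together 7.2% of those tested, and 1.58% of the noncoding features. It called 490 in all without E37 replicate 1, 605 without E37 replicate 2, 627 without E42 replicate 1 and 708 without E42 replicate 2, and 1304 with all libraries thinned to the smallest. CBLN2-AS-1, antisense to a gene of a synaptic organiser, measured 0.312 and 0.181 CPM at E28, 1.1, 2.49 and 3.03 CPM at E37 and 0.621 and 0.553 CPM at E42, so every E37 library lay above all others (difference 2.52 ± 0.52 on the log2 scale, edgeR adjusted p = 0.013). The other features with the largest positive difference (PTCHD4-AS-1, LINC-ABHD5-4 and CHSY3-AS-1) rose by E37 and had not returned to their E28 level at E42. Their second step was not called (edgeR adjusted p = 0.87, 0.76 and 0.46), so a peak at E37 is not shown. The mean of PTCHD4-AS-1 was higher at E42 (1.81 CPM) than at E37 (1.55 CPM). LINC-TMEM132B-23, beside a gene of a neural membrane protein, showed a trough, at 0.272 to 0.575 CPM at E37 against 1.02 to 3.63 CPM in the E28 and E42 libraries (edgeR adjusted p = 0.017). SAE1-AS-2, antisense to a gene of the SUMO-activating enzyme, measured 0.0906 to 0.513 CPM at E37 and 1.25 to 2.32 CPM at the other stages (edgeR adjusted p = 0.034). No E37 library overlapped the others in LINC-TMEM132B-23 or SAE1-AS-2. LINC-TMEM132B-23 lost its call without E37 replicate 1, E37 replicate 2 or E42 replicate 1. SAE1-AS-2 kept its call among the leave-one-out fits only without E28 replicate 2 or E37 replicate 3. LINC-ABHD5-4 lost its E37 call without E28 replicate 2, E37 replicate 1, E37 replicate 2 or E42 replicate 1. LINC-VAMP3-1, described above, was also among the largest negative differences. It had fallen by E37 and stayed near 0 at E42, and its second step was not called (edgeR adjusted p = 0.27).

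Features typical of the layer above and of the layer below moved differently in the IZ. Lists were made from the 25 libraries that are neither IZ nor VZ: the CP exceeded the OSVZ at E28 and again at E42 for 1082 features (the CP list), the reverse held for 1132 (the OSVZ list), and the MZ exceeded both layers for 107 (the MZ list). On the CP list, 1076 features were tested in the IZ, of which 501 rose (46.6%) and 27 fell (2.51%) between E28 and E42, beside 11.3% and 7.63% of all features. Their median log2 fold change was 0.84, against 0 over all features. The CP list made up 25% of all risers. In the first step 580 of its features rose and 7 fell, beside 9.22% and 6.56% of all features, and in the second 16 rose and 53 fell, beside 3.65% and 2.2%. The CP list took 8.43% and 8.1% of the counts of the E28 libraries, 12.7%, 14.1% and 12.8% at E37 and 13.2% and 12.5% at E42. Both E28 libraries were below all later ones, and E37 and E42 overlapped. In the CP itself the same features took 13.6% and 14.4% at E28.

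The OSVZ list dipped at E37. Between E28 and E42, 175 of its 1109 tested features rose (15.8%) and 194 fell (17.5%), with a median log2 fold change of -0.06. In the first step 40 rose (3.61%) and 332 fell (29.9%), beside 9.22% and 6.56% of all features. In the second 257 rose (23.2%) and 6 fell (0.541%), beside 3.65% and 2.2% of all features. The median log2 fold change of the list was -0.55 in the first step and 0.52 in the second. E37 was called below the mean of the other stages for 241 of these features (21.7%, beside 2.94% of all features) and above it for 3. The list took 6.55% and 6.98% of counts in the E28 libraries, 4.63%, 4.11% and 4.89% at E37 and 5.8% and 6.32% at E42, so the 3 stages did not overlap and E37 was lowest. In the OSVZ itself it took 9.21% to 9.45% at E28 and 10.7% to 10.8% at E42. The ISVZ held 13.1% and 14.1% at E28 and 9.87% and 10.3% at E42, and VZ replicate 1 held 16.3% at E28. The list is therefore not particular to the OSVZ among the germinal zones. The series analysed here holds no OSVZ, ISVZ or VZ library of E37 to set beside the dip. On the MZ list, 23 of 92 tested features rose (25%) and 6 fell (6.52%), beside 11.3% and 7.63% of all features, and it took 1.3% to 1.37%, 1.38% to 1.55% and 1.71% to 1.8% of the IZ counts at the 3 stages. Of 15481 tested features on none of these lists, 1305 rose (8.43%) and 1127 fell (7.28%), beside 11.3% and 7.63% of all features. How much tissue of a neighbouring layer a cut of the IZ held at each stage was not measured, and its part in these values was not tested.

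**Figure D4:**
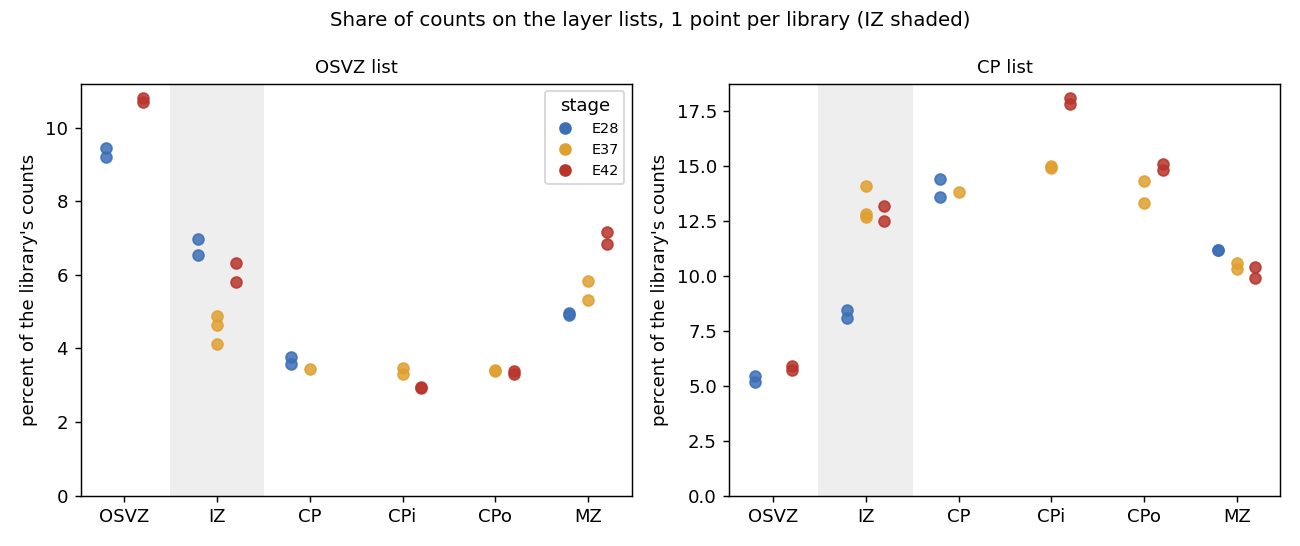
Percent of each library's counts on the OSVZ list (left) and on the CP list (right), by layer, with 1 point per library coloured by stage and the IZ shaded. In the IZ, the OSVZ list is lowest in the 3 E37 libraries (4.11% to 4.89%), and the CP list is lowest in the E28 libraries (8.1% and 8.43%). The ISVZ and VZ are not shown.

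Of 133 noncoding features named after genes of the oligodendrocyte lineage, 85 had no count in any IZ library and 7 could be tested, of which 4 rose. Of all noncoding features tested 4.06% rose, but no share is read from these 7, since a feature high at E42 alone could pass the filter through that stage. BCAS1-AS-1 had at most 1 count in any library before E42 and 29 and 45 counts at E42. OLIG2-AS-1, antisense to the gene of the transcription factor that specifies this lineage, had no count in either E28 library and measured 1.26, 0.181 and 0.839 CPM at E37 and 2.02 and 2.62 CPM at E42. At E42 it was at least 43.6-fold above the limit set by the E28 counts (edgeR adjusted p = 0.0013). LINC-SOX10-1, beside the gene of another transcription factor of the lineage, measured 0.486 and 0.327 CPM, then 1.15, 2.76 and 0.839 CPM, then 4.45 and 10.5 CPM (log2 fold change 4.18 ± 0.69, edgeR adjusted p = 0.0012). In both features each E42 library was above every earlier one.

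NKX2-2-AS-1, antisense to a homeobox gene active in oligodendrocyte precursors, measured 0.0694 and 0.145 CPM at E28, 0.262, 0.0906 and 0.653 CPM at E37 and 1.24 and 1.19 CPM at E42 (log2 fold change 3.46 ± 1.07, edgeR adjusted p = 0.038). BCAS1-AS-1, antisense to a gene of early myelinating oligodendrocytes, was at most 0.0466 CPM until E37 and measured 0.581 and 1.31 CPM at E42 (log2 fold change 4.57 ± 1.33, edgeR adjusted p = 0.029). Both lost their call when any E28 or E42 library was left out, whereas OLIG2-AS-1 and LINC-SOX10-1 kept theirs in every alternative. The 3 tested features that were not called, SOX10-AS-1, QKI-AS-2 and LINC-BCAS1-8, had log2 fold changes of 3.06, 1.75 and 2.72, with edgeR adjusted p = 0.083, 0.41 and 0.5. Summed over the list, the level was 1.67 to 1.96 CPM at E28, 4.08 to 5.57 CPM at E37 and 12.6 to 19.4 CPM at E42, without overlap.

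At E42 the lineage features were also found in other layers. OLIG2-AS-1 measured 1.98 to 2.51 CPM in the IZ, 2.46 to 3.47 CPM in the OSVZ and 0.916 to 1.1 CPM in the MZ, and at most 0.457 CPM in the CPi and CPo. LINC-SOX10-1 measured 4.36 to 10.1 CPM in the IZ, 8.84 to 16.2 CPM in the OSVZ and 2.33 to 3.9 CPM in the MZ. BCAS1-AS-1 measured 0.57 and 1.25 CPM in the IZ and 0.811 and 1.37 CPM in the OSVZ, which overlapped. NKX2-2-AS-1 was higher in the IZ (1.14 and 1.22 CPM) than in the OSVZ (0.579 and 0.845 CPM), with no overlap. No interaction test, with or without the replicate block, called the IZ change of these 4 features different from that of the OSVZ, CP or MZ (edgeR adjusted p from 0.16 to 1). For OLIG2-AS-1 the tests against the CP and MZ could not decide. Their standard errors were far above the differences of 4.15 and 1.15 on the log2 scale.

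**Figure D5:**
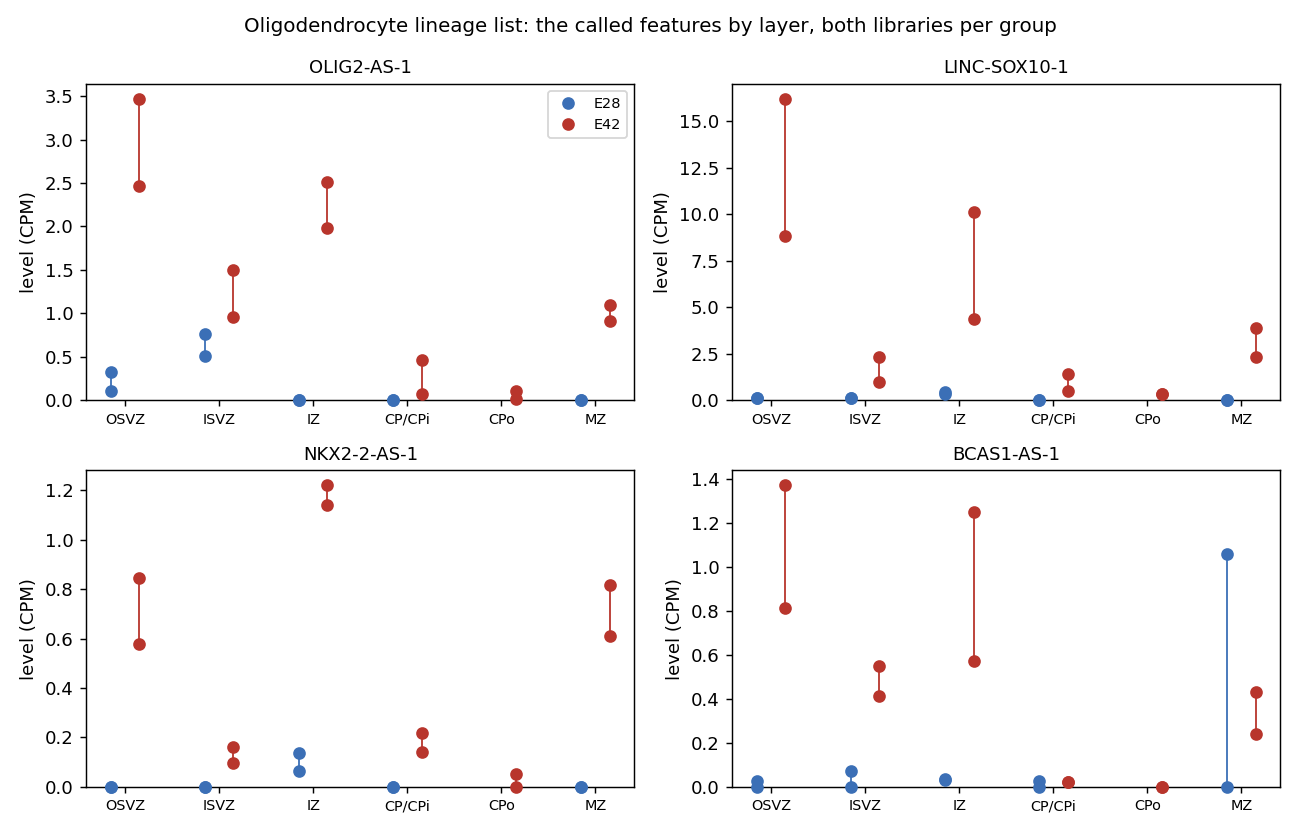
Level in CPM of the 4 called features of the oligodendrocyte lineage list by layer at E28 (blue) and E42 (red), with both libraries of a group joined by a line and a separate linear axis for each feature. All 4 are higher at E42 than at E28 in the IZ, and OLIG2-AS-1, LINC-SOX10-1 and BCAS1-AS-1 reach as high or higher in the OSVZ.

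Features named after progenitor genes rose in 4 cases and fell in 1, of 31 tested (16.1% called, beside 5.93% of all noncoding features, as a description). LINC-SOX1-1, beside a gene of neural progenitors, measured 0.902 and 0.617 CPM at E28, 0.994 to 1.17 CPM at E37 and 2.28 and 2.94 CPM at E42 (log2 fold change 1.77 ± 0.55, edgeR adjusted p = 0.04). LINC-SOX9-15, beside a gene of radial glia and glial precursors, measured 0.694 and 0.327 CPM at E28 and 2.2 and 2.13 CPM at E42 (edgeR adjusted p = 0.048), a call lost in 10 of 16 alternatives. SLC1A3-AS-3 and TNC-AS-2, antisense to genes of a glial glutamate transporter and of a glial matrix protein, rose with edgeR adjusted p = 0.036 and 0.047. All 4 risers lost their call when any E28 or E42 library was left out. NEUROG1-AS-1, antisense to a proneural factor gene, fell from 1.87 and 1.56 CPM at E28 to 0 and 0.175 CPM at E42 (log2 fold change -4.35 ± 1.26, edgeR adjusted p = 0.029), a call lost without either E28 library or E42 replicate 1. The summed level of the list was 18.1 to 28.3 CPM at E28, 20.5 to 21.5 CPM at E37 and 40 to 41 CPM at E42, so both E42 libraries lay above all others. SOX9, SLC1A3 and TNC are also expressed by glia, and the part of each cell type was not tested.

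Features named after transcription factors of projection neurons moved in both directions, with 4 risers and 7 fallers of 55 tested (20% called, beside 5.93% of all noncoding features, as a description). Those named after SOX11, a transcription factor of immature neurons, split. LINC-SOX11-22 measured 2.05 and 3.08 CPM at E28, 1.41, 0.589 and 3.59 CPM at E37 and 0.0401 and 0.116 CPM at E42 (log2 fold change -5.04 ± 0.95, edgeR adjusted p = 0.0028). LINC-SOX11-20 measured 3.75 and 5.62 CPM, then 0.889 to 3.59 CPM, then 0.461 and 0.349 CPM (log2 fold change -3.51 ± 0.69, edgeR adjusted p = 0.0035). LINC-SOX11-14 moved the other way, from 0.937 and 2.61 CPM at E28 to 13.1, 15.1 and 33.3 CPM at E37 and 8.38 and 15.9 CPM at E42 (log2 fold change 2.77 ± 0.65, edgeR adjusted p = 0.021). LINC-SOX11-14 lost its call without E28 replicate 1 or E42 replicate 2. By layer they also parted, as a description. LINC-SOX11-20 and LINC-SOX11-22 were highest in the ISVZ and OSVZ at E28, at 6.94 to 11.4 CPM, whereas LINC-SOX11-14 was at most 0.036 CPM there and reached 21.3 to 26.4 CPM in the CPi at E42.

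Called features of this list were also named after NEUROD2, NFIB, POU3F3 and TSHZ3. LINC-NEUROD2-1, beside a gene of neuronal differentiation, fell from 6.56 and 6.79 CPM at E28 through 3.82, 1.99 and 2.47 CPM to 1.2 and 0.961 CPM at E42 (log2 fold change -2.62 ± 0.46, edgeR adjusted p = 0.0018). LINC-NFIB-5, beside a gene that acts in neuronal and glial maturation, fell from 1.63 and 2.69 CPM to 0.281 and 0.0291 CPM (edgeR adjusted p = 0.016). LINC-POU3F3-23, beside a gene of upper-layer neurons, rose from 0.59 and 0.98 CPM at E28 to 6.02, 3.53 and 4.38 CPM at E37 and 5.99 and 6.55 CPM at E42 (log2 fold change 2.99 ± 0.46, edgeR adjusted p = 0.00075), and LINC-POU3F3-22 rose by 1.62 ± 0.39. TSHZ3-AS-1, antisense to a zinc finger homeobox gene, rose from 4.37 and 6.68 CPM to 17.1 and 11.6 CPM (edgeR adjusted p = 0.013). E28 and E42 did not overlap in any of these features. LINC-NFIB-5 lost its call without E28 replicate 2 or E42 replicate 2, and LINC-POU3F3-22 and TSHZ3-AS-1 lost theirs without E28 replicate 1 or E42 replicate 1.

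Features named after genes of neuronal signalling were mostly not called, and the counts below stand beside 4.06% of all noncoding features that rose and 1.88% that fell. Of 23 tested features named after neurotransmitter receptors, none was called in either direction by edgeR, 3 were higher at an unadjusted p under 0.05 and DESeq2 called 1 higher. Their median log2 fold change was 0.88, and 19 were above 0. Of 26 named after voltage-gated channels, 3 rose, with a median of 1.20. These were KCND3-AS-3 (2.08 and 2.29 CPM at E28, 4.76, 7.57 and 6.29 CPM at E37, 8.3 and 7.57 CPM at E42, edgeR adjusted p = 0.0039), CACNA2D1-AS-5 and LINC-KCNV1-2. LINC-KCNV1-2 lost its call in 10 of 15 alternatives, any E28 or E42 library left out among them, and CACNA2D1-AS-5 lost its call without either E42 library or E28 replicate 2. Of 14 named after synaptic vesicle genes, SYN3-AS-7 rose, from 2.39 and 0.29 CPM to 6.73 and 8.15 CPM (edgeR adjusted p = 0.035), a call lost in 7 of 16 alternatives, among them leaving out either E42 library or E28 replicate 2. Its log2 fold change ran from 1.64 to 4.66 over the alternatives. Of 50 named after synaptic adhesion and scaffold genes, SHANK3-AS-3 and SLITRK2-AS-1 rose and DLG2-AS-16 fell. DLG2-AS-16, antisense to a postsynaptic scaffold gene, was the most abundant of them, at 72.3 and 97.8 CPM at E28, 33, 22 and 39.3 CPM at E37 and 36.6 and 26 CPM at E42 (log2 fold change -1.44 ± 0.28, edgeR adjusted p = 0.004). Of 42 named after axon guidance and migration genes, EFNB2-AS-1, antisense to an ephrin gene, fell. SLITRK2-AS-1 lost its call when any E28 or E42 library was left out, SHANK3-AS-3 without E28 replicate 2 or E42 replicate 1, and EFNB2-AS-1 without either E42 library or E28 replicate 1.

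Among the lists of other cell types and functions, 7 of 29 homeobox features and 2 of 23 cadherin features rose (24.1% and 8.7% called, beside 5.93% of all noncoding features). These shares are not read as a result, since a feature high at E42 alone could pass the filter through that stage. LINC-IRX6-2 had no count at E28 and 23 and 15 counts at E42, and lost its call in 8 of 16 alternatives. PCDH10-AS-2 lost its call in 7 of 16 alternatives and LINC-CDH12-1 in 2 of 15. The homeobox list shares features named after POU3F3, TSHZ3, NKX2-2 and LHX5 with other lists. For morphogens and growth factors, 2 of 18 rose (FGF1-AS-1 and NTRK2-AS-8) and 1 fell (FZD3-AS-1), and 1 of 123 zinc finger features rose and 3 fell (3.25%, under the 5.93% of all noncoding features). The next 3 lists had 1 call each, too few to set beside that share. Of 10 cell cycle features LINC-BUB1B-2 rose, and of 6 features named after genes of vessels, microglia, blood and meninges COL4A1-AS-6 rose. Of 4 features named after Cajal-Retzius genes LINC-LHX5-6 rose, from no count at E28 to 0.401 and 0.902 CPM at E42, at least 12.2-fold (edgeR adjusted p = 0.029). That call was lost without either E28 library or E42 replicate 2, that of COL4A1-AS-6 when any E28 or E42 library was left out, that of FGF1-AS-1 without E28 replicate 2 or E42 replicate 2, and that of FZD3-AS-1 without either E42 library or E28 replicate 2. The summed level of that list, 7.87 to 9.44 CPM at E28 and 7.45 to 8.47 CPM at E42, overlapped between stages. None of 11 interneuron, 5 subplate or 2 astrocyte features was called in either direction between E28 and E42 by edgeR or by DESeq2, and 0, 1 and 0 of them reached an unadjusted p under 0.05. In the first step edgeR called 1 interneuron feature lower and 1 subplate feature higher, and in the second 1 of each higher. The interneuron list summed to 12.4 to 15.1 CPM at E28, 6.85 to 8.79 CPM at E37 and 16.1 to 19.9 CPM at E42, and both tested astrocyte features were named after AQP4.

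RWDD3, AKAP2 and FSTL4 were, beside SOX11, among the symbols that gave their name to the most called features. All 3 called RWDD3 features, of 4 tested, fell, LINC-RWDD3-4 from 33.8 and 12.1 CPM at E28 to 9.24 and 5.27 CPM at E42. LINC-RWDD3-4 lost its call without E28 replicate 1 or E42 replicate 2, with a log2 fold change of -2.21 to -0.73 over the alternatives, and LINC-RWDD3-8 and LINC-RWDD3-11 lost theirs when any E28 or E42 library was left out. Both AKAP2 features rose. AKAP2-AS-2, antisense to a gene that anchors protein kinase A, measured 5.38 and 8.09 CPM at E28, 43.8, 59.5 and 47.4 CPM at E37 and 46.5 and 52.5 CPM at E42, so the rise was complete by E37 (log2 fold change 2.88 ± 0.24, edgeR adjusted p = 8.5e-06). Both FSTL4 features rose too, LINC-FSTL4-1 from 0.728 and 1.89 CPM to 8.42 and 5.56 CPM, and both lost their call without E42 replicate 1, LINC-FSTL4-1 also without E28 replicate 1 and FSTL4-AS-2 without E28 replicate 2.

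The change of the IZ was then compared with that of other layers by an interaction test in a model of 32 libraries, in which 26132 features were tested. Against the OSVZ, 102 features had a more positive change in the IZ and 30 a more negative one (0.505% of those tested). Against the CP these numbers were 173 and 162 (1.28%), and against the MZ 166 and 315 (1.84%). With the replicate number as a block, the counts of called features were 466, 864 and 1303. Of the 3353 features called in the IZ itself, 2.42%, 5.1% and 7.84% had a change that differed from that of the OSVZ, CP and MZ. The 3 comparisons share the IZ libraries, and the E42 side of the CP was the mean of CPi and CPo. Without E42 replicate 1 of the IZ the counts fell to 48, 179 and 223, without E42 replicate 2 to 65, 170 and 305, without E28 replicate 1 to 53, 209 and 357, and without E28 replicate 2 to 55, 137 and 260.

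PFKP-AS-1, antisense to a gene of glycolysis, was the clearest named case. In the IZ it measured 1.67 and 1.71 CPM at E28, 15, 23.2 and 12.9 CPM at E37 and 24.5 and 29.5 CPM at E42 (log2 fold change 4.00 ± 0.35, edgeR adjusted p = 9.6e-06). On the scale of 32 libraries the OSVZ went from 0.376 and 0.852 CPM to 0.154 and 0.671 CPM, and the MZ from 8.94 and 9.91 CPM to 4.96 and 5.53 CPM. In the CP it stood at 4.08 to 4.92 CPM at E28 and reached 46.4 to 54.7 CPM in the CPi, and there the difference from the IZ change was not called (edgeR adjusted p = 0.32, and 0.16 with the replicate block). ADCYAP1-AS-2 differed from the CP in the other direction, falling in the IZ while the CP measured 0.027 and 0.287 CPM at E28, and the CPi and CPo measured 1.14 to 1.85 CPM at E42. Its level in the OSVZ went the same way as in the IZ, from 9.78 and 11.7 CPM to 0.596 and 0.927 CPM.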

How the data were processed

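Members, gene lists and tests were chosen with earlier results of these data known. The authors trimmed adapters, mapped reads with HISAT2 to the genome of the species and ran HTSeq on its annotation, and the deposited values are whole-number counts per feature, not normalized. The 5 closing lines of HTSeq were removed, so 50.1% to 56.9% of the lines' total remained (20202632 to 45173487 counts per IZ library). Another 15% to 18.2% were ambiguous.

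Groups came from the deposited labels. One VZ file was deposited under both E28 and E42 with identical values, so VZ libraries entered no main fit. Features were filtered with filterByExpr (minimum count 10), scaled by TMM and tested with edgeR 4.0.16 (quasi-likelihood, robust, R 4.3.3) in the 7 IZ libraries with a mean per stage (17744 features, 4 residual degrees of freedom), with Benjamini-Hochberg adjustment over all of them and a threshold of 0.05. Standard errors are the log2 fold change over the root of F. Interactions were tested in 32 libraries and layer lists in 25. Early means called in the direction of the whole change in the first step and not in the second, late the reverse. Levels are TMM-scaled CPM, and against a group without counts a fold is a lower bound from 3 counts over the group. The procedure was tested on simulated data.

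Named features passed the E42 against E28 test without overlap of both stages and with a mean of at least 1 CPM (10 for TSDBGID): the 12 noncoding and 4 TSDBGID features with the largest change each way, 3 per timing class and direction, 4 peaks and troughs, 3 per interaction and direction (for peaks, troughs and interactions by their own test), the 5 symbols with most calls, and called members of the gene lists. Peaks and troughs were chosen by the test of E37 against the mean of the other stages, which does not require E37 to be the extreme stage. The 3 uncalled oligodendrocyte features were added after their values were seen. Of 12435 symbols in feature names, 10411 were in a RefSeq gene table. Some features that meet this rule are not reported here. No sequences were used here. Alternatives were DESeq2 1.42.0, its size factors, no filter, wider models, thinned counts, a replicate block and leaving out each IZ library.

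Libraries of the same stage and number in the IZ and other layers deviated together, with correlations of 0.255 to 0.374 at E28 and 0.168 to 0.304 at E42, except -0.0204 with the OSVZ at E42. The main interaction tests did not use the number as a pairing. An alternative fit used it as a block within each stage for all layers of the 32 libraries, the OSVZ among them.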

Additional observations from a re-analysis of the deposited data

Results flagged for a closer look

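The features here were named because their IZ change between E28 and E42 differed from that of another layer by an interaction test (edgeR, without the replicate block). Differences are IZ change less the other layer's change, on the log2 scale, and no explanation was tested.

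Against the OSVZ, LINC-HINT1-9 differed by 7.13, LINC-HIS-71-7 by 6.78 and PFKP-AS-1 by 4.53, with edgeR adjusted p = 0.01, 0.0082 and 0.0015. LINC-HINT1-9 stayed at 0.0289 to 1.1 CPM in the OSVZ while the IZ reached 6.05 and 6.69 CPM. LINC-HIS-71-7, beside a histone gene, went from 2.05 and 2.83 CPM to 0 and 0.0745 CPM in the OSVZ, and its IZ change was not called (edgeR adjusted p = 0.22). LINC-NEBL-1, beside a gene of actin filament organisation, differed by -5.18 (edgeR adjusted p = 0.023), with an OSVZ level of 0 and 0.0275 CPM at E28 and 2.33 and 2.59 CPM at E42.

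Against the CP, ADCYAP1-AS-2 differed by -7.32 and LINC-TMEM132B-23 by -3.7, with edgeR adjusted p = 0.00025 and 0.0029. LINC-HS3ST4-2, beside a gene of heparan sulphate modification, differed by 5.15, LINC-HIS-71-7 by 4.22 and TSHZ3-AS-1 by 3.38 (edgeR adjusted p = 0.0046, 0.039 and 0.0025). LINC-HS3ST4-2 measured 4.83 and 13.5 CPM in the CP at E28, 2.67 to 3.95 CPM in the CPi and 0.0354 to 0.103 CPM in the CPo at E42. TSHZ3-AS-1 measured 15.3 and 35.9 CPM in the CP at E28 and 2.47 to 12.5 CPM in the CPi and CPo at E42, while it rose in the IZ.

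Against the MZ, PFKP-AS-1 differed by 4.88, CHSY3-AS-1 by 3.36 and NRSN2-AS-1 by 2.5 (edgeR adjusted p = 9.7e-05, 0.0066 and 0.015). NRSN2-AS-1, antisense to a gene of a neuronal vesicle protein, rose in the IZ from 2.53 and 2.65 CPM to 20.9 and 24.8 CPM. LINC-SOX9-15 differed by -7.73, LINC-AAGAB-1 by -4.08 and PTCHD2-AS-1 by -4.04 (edgeR adjusted p = 0.016, 0.028 and 0.02). LINC-SOX9-15 had no count in either MZ library at E28 and measured 2.82 and 3.81 CPM there at E42, so the size of its difference depends on the prior count.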

How the results depend on the processing

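None of the 3353 features called between E28 and E42 changed sign in the 16 alternatives, wherever they could be fitted (3331 to 3353 of them). Calls numbered 1151 higher and 528 lower with all 36 libraries in the fit, and 871 lower with 34. With 36 libraries the first step called 1342, the second 334 and E37 against the mean of the others 373, and early, late and double calls were 707, 154 and 14. With 34 libraries the last test called 819 and double calls were 63. Without a filter the second step called 1660, E37 against the mean 2004 and double calls were 301, with a median log2 fold change over all features of 0.20. DESeq2 called 1822 and 2091 in these tests, with 733 late and 246 double calls. Interaction calls against the OSVZ, CP and MZ were 392, 637 and 819 without a filter and 387, 730 and 1029 with DESeq2. The replicate block gave 466, 864 and 1303. Between IZ stages the libraries share only a number (correlations of deviations 0.0501, -0.0616 and 0.0672), and a replicate block there gave 2148 higher and 1363 lower.

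Leaving out 1 IZ library gave 1116 to 2185 higher and 429 to 1431 lower, 1649 to 2918 in the first step, 175 to 1383 in the second and 490 to 1524 for E37 against the mean. Early calls ranged from 971 to 1616, late from 84 to 435, double from 52 to 162 and neither from 457 to 1719. Interaction calls ranged from 48 to 131, 137 to 348 and 223 to 493. Risers were 59.6% of calls, and 75.4% without E42 replicate 1. Of 84 named features, 32 were called in all 16 alternatives, and of 1341 values 225 lost the call and 0 reversed. With 2 libraries at E28 and E42, a lone remaining library is assumed to vary like the other stages. Levels under 1 CPM rest on few counts, and smaller changes were not detectable there.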
